A study of Octopus bimaculoides with 95 samples.

Results

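The 100 genes described here are those whose transcript level in the California octopus Octopus bimaculoides stood highest in the vertical lobe of the brain relative to a set of other neural tissues. They were chosen from 17485 scored gene IDs, of 17527 in the table. The score was the mean log2(TPM + 1) over 5 vertical lobe subdivisions minus the highest tissue mean among 10 other neural tissues, where TPM is a transcript level scaled by transcript length and to a fixed total of 1000000 per library. All values of the vertical lobe against those 10 tissues therefore chose the genes and are given as a description, with no test. Only 1190 of the 17485 genes had a score above 0, and the 100 chosen run from 1.97 down to 0.58.

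The study sequenced RNA from tissues and single neurons of this species in 95 libraries, 85 in a plate table and 10 in a second table. In the plate table, 5 pieces of the vertical lobe have 3 libraries of whole tissue each: the medial piece, and on either side a lateral and a mediolateral one. The 10 other neural tissues with 3 libraries are the subvertical lobe, the superior frontal and inferior frontal lobes, the dorsal basal lobe, the remaining basal and subfrontal lobes, the anterior superior buccal lobe, the deep medulla and the plexiform periphery of the optic lobe, the stellate ganglion and the proximal arm cord. Another 6 neural tissues have 1 library each, and 25 non-neural tissues have 34 libraries between them. The second table adds 5 libraries of whole tissue, with 2 of the whole vertical lobe and 1 each of the medial superior frontal lobe, stellate ganglion and brachial ganglion (its library name says arm cord), and 5 single neurons taken from dissociated nervous tissue. No genotype, treatment, age or sex is given in the labels used here, and whether replicate libraries were made from different animals is not stated, so the p-values rest on a spread between libraries that may be technical.

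The vertical lobe sits at the top of the octopus brain and is known for its part in learning and memory. Axons from the superior frontal lobe contact very many small amacrine interneurons there, which converge on far fewer large efferent neurons, and the efferent axons leave the lobe toward the subvertical lobe below it. Activity-dependent strengthening of transmission has been described at these contacts in octopus. A difference in the level of a transcript between pieces of tissue can come from fewer cells of a type or from less RNA per cell, and these cannot be told apart in whole tissue. The genes carry numeric IDs and no product names, so no role is given to any of them. LOC marks a gene ID found in the RefSeq gene table, and ID marks one that was not.

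Several libraries stood apart from their labels. The library labelled right mediolateral vertical lobe 1 had 94.1% of its TPM in spike-in RNA, against 20.8% to 79.5% in the other 14 vertical lobe libraries, and lay nearest to a large sucker library (r = 0.77 across 14800 genes, against at most 0.62 with any vertical lobe library). The library labelled stellate ganglion 1 lay nearest to skin (r = 0.89), with at most 0.59 to another stellate ganglion library. The library labelled chromatophores 1 was closest to left mediolateral 2 of the vertical lobe (r = 0.94), with 0.66 to chromatophores 2. The library name of left lateral 3 gives the mediolateral piece and then corrects it to the lateral one. In the second table, both whole vertical lobe libraries were closer to the subvertical lobe of the plate (r = 0.87 and 0.90 across 10296 genes) than to the mean of its vertical lobe libraries (0.77 and 0.79), with the dorsal basal lobe second (0.85 and 0.88). The library labelled medial superior frontal lobe was also nearest to the subvertical lobe (0.86), and closer to the vertical lobe mean (0.80) than to the superior frontal lobe (0.78). The vertical lobe mean is over 15 libraries and those of the other lobes over 3, so these values are not like for like. Right lateral tissue, a mean of 3 and the closest of the subdivisions to this library, was at 0.83. The amacrine and the large efferent neuron of the vertical lobe also lay nearest to the subvertical lobe, at 0.57 and 0.66. With the vertical lobe mean, which includes right mediolateral 1, they were at 0.56 and 0.64. These correlations run across genes of single libraries, share the scaling of each library and are given as a description.

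Across the plate, the 100 genes were spread over a wide range of levels. Their mean over the 15 vertical lobe libraries ran from 2.90 to 1827 TPM, with a median of 45.9 TPM. It reached 10 TPM in 86 genes, 100 TPM in 30 genes and 500 TPM in 5 genes. Of the 100, 25 had a score of 1 or more, which is a doubling on the log2(TPM + 1) scale, and the median score was 0.75. Without the highest library, the mean moved by at most 1.5 times in 95 of the 100. With 15 libraries this limit still admits means that lean on 1 library. LOC106873430 fell within it, with 20.1 TPM over the 15 libraries and 13.4 TPM without right mediolateral 1.

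**Figure D1:**
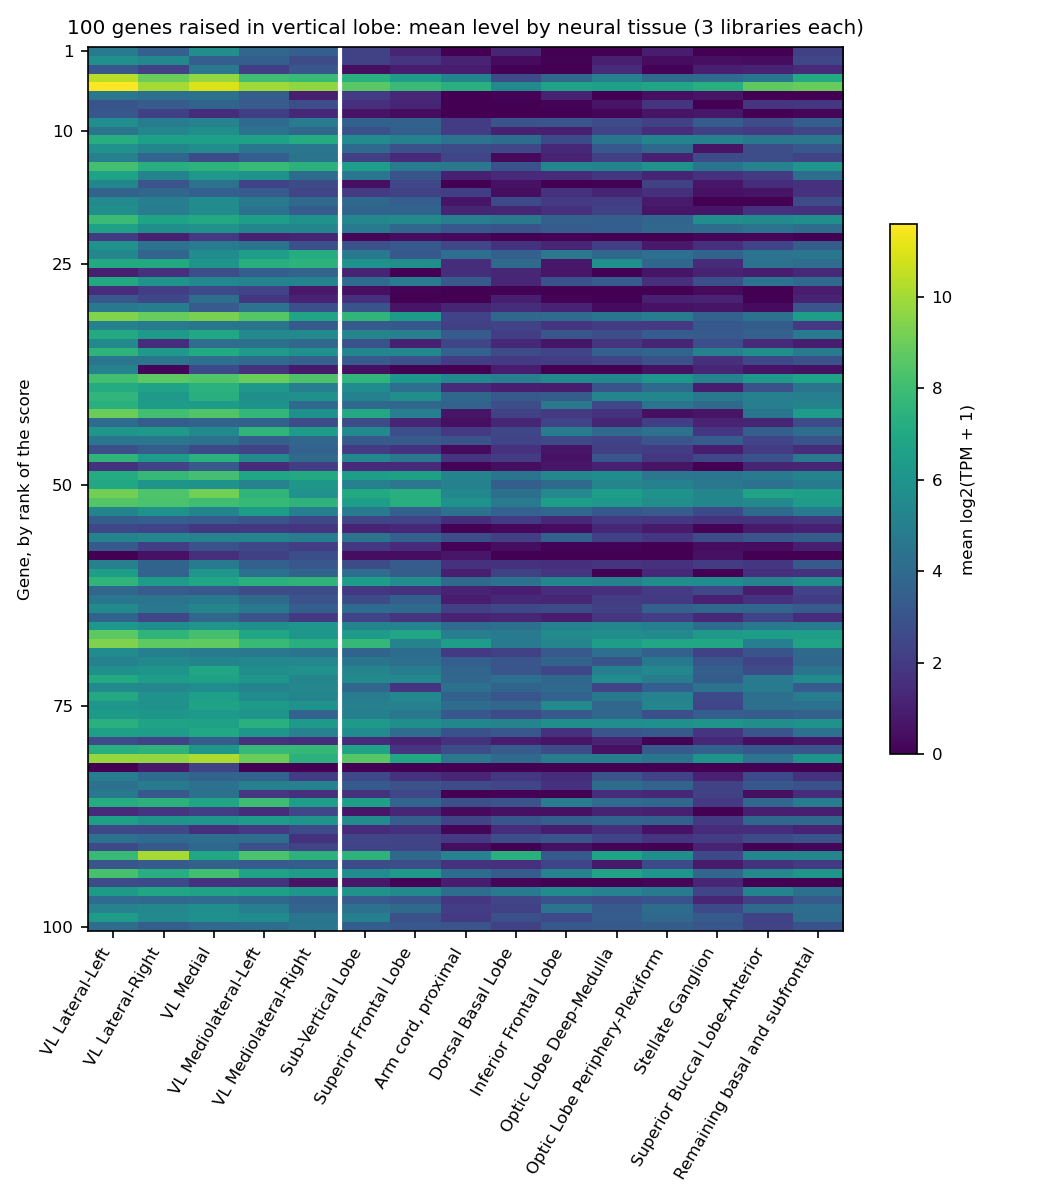
Heat map of the mean log2(TPM + 1) of the 100 genes (rows, by rank of the score) in 15 neural tissues with 3 libraries each (columns; VL, vertical lobe). The 5 vertical lobe columns lie left of the white line; by the choice of genes they are brighter on average, and the subvertical and superior frontal lobes come closest on the right.

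The subvertical lobe was the nearest of the other tissues for 42 of the 100 genes and the superior frontal lobe for 19. The remaining basal and subfrontal lobes and the optic medulla followed with 10 genes each, the stellate ganglion and superior buccal lobe with 5 each, the arm cord with 4, the inferior frontal lobe with 3 and the optic periphery with 2. The superior frontal lobe lies on the input side of the vertical lobe and the subvertical lobe on its output side. Whether this bears on the counts was not tested. The median member stood at 2.25, 3.43 and 4.68 in superior frontal 1, 2 and 3, and at 3.56, 3.55 and 4.82 in subvertical 1, 2 and 3. Superior frontal 3 lay nearest to medial 3 of the vertical lobe (r = 0.864, against 0.862 for its own label). Subvertical 2 lay nearest to left mediolateral 3 (0.946, against 0.933). The remaining libraries of these tissues were not nearest to a vertical lobe library. The median tissue mean of the 100 genes, in log2(TPM + 1), was 3.94 in the subvertical lobe, 3.38 in the superior frontal lobe and 3.32 in the remaining basal and subfrontal lobes, and 2.11 to 2.85 in the other 7. In the 5 vertical lobe subdivisions it was 5.54 in left lateral, 5.47 in medial, 5.11 in right lateral, 4.74 in left mediolateral and 4.06 in right mediolateral tissue.

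Single libraries overlapped for every gene. No member had all 15 vertical lobe libraries above all 30 libraries of the other tissues, and none did without right mediolateral 1 either. The median member had 6 of 15 vertical lobe libraries above all 30, the best had 12, and 18 members had 8 or more. In 49 of the genes all 5 subdivision means lay above all 10 other tissue means, and 81 did so for the 4 subdivisions other than right mediolateral. The library labelled right mediolateral 1 was the lowest of the 15 for 62 genes, and 32 genes were listed at 0 there.

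**Figure D2:**
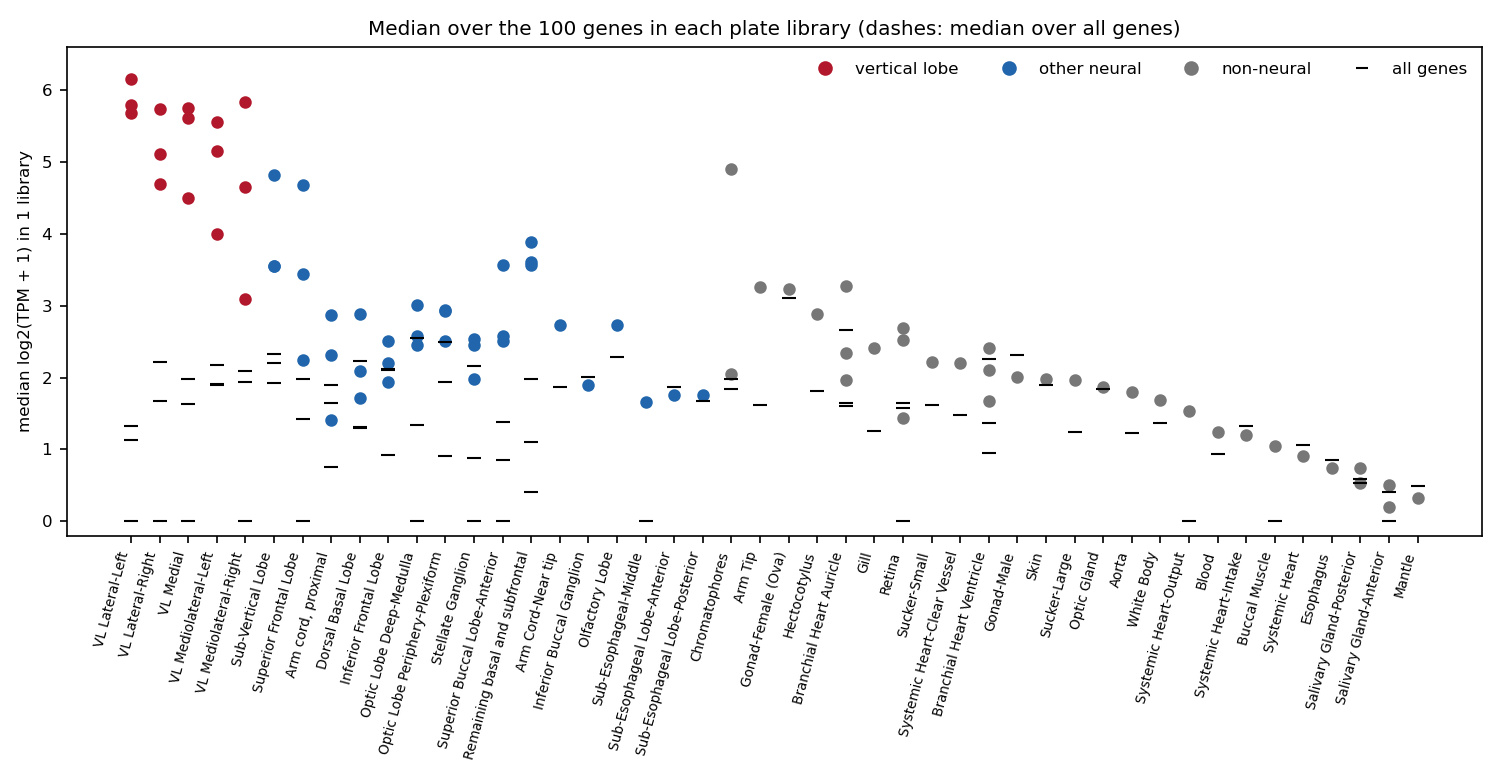
Median log2(TPM + 1) over the 100 genes in each of the 85 plate libraries (points), by tissue, with vertical lobe in red, other neural tissue in blue and non-neural tissue in grey. Dashes, labelled all genes, give the median over genes at 1 TPM or more in at least 3 plate libraries. Vertical lobe libraries run from 3.09 in right mediolateral 1 to 6.16, a subvertical library reaches 4.82, a superior frontal library 4.68, and chromatophores 1 stands at 4.90 among non-neural libraries.

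The gene with the highest score, LOC106867584, was a long non-coding RNA with little signal elsewhere in the plate. Its level in the 15 vertical lobe libraries was 0 TPM at the lowest, 47.6 TPM at the median and 317 TPM at the highest, with 4 libraries listed at 0. In the 30 other libraries it was listed at 0 in 23, and the highest value was 26.7 TPM. The groups overlapped through the vertical lobe libraries at 0, and 8 vertical lobe libraries lay above all 30 others. It was listed at 0 in all 6 remaining neural tissues and, among the 34 non-neural libraries, was above 0 only in chromatophores 1 (4.04 TPM).

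LOC106871649, a protein-coding gene at rank 2, had 0, 21.2 and 152 TPM as its lowest, median and highest vertical lobe value, and the left lateral libraries held 21.2, 53.7 and 152 TPM. The 30 other libraries ran from 0 to 27.9 TPM with a median of 0.60 TPM, so that 6 vertical lobe libraries were higher than all of them. LOC106873430, at rank 3, had 0, 7.68 and 114 TPM, with the highest value in right mediolateral 1. Without that library its score fell from 1.68 to 1.31 and its rank moved to 16.

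The most abundant member was ID106880569, with 232, 1348 and 4241 TPM as lowest, median and highest vertical lobe value. Its level over the 15 libraries was 1827 ± 1242 TPM (SD, n = 15), against 493 ± 169 TPM (SD, n = 3) in the remaining basal and subfrontal lobes, the nearest tissue by mean log2 level. One superior frontal library, at 1838 TPM, exceeded 8 of the 15 vertical lobe libraries. LOC106873486 followed with 83.6, 421 and 3562 TPM in the vertical lobe and 236 ± 243 TPM (SD, n = 3) in the subvertical lobe. Medial 2 held the highest value of that gene and right mediolateral 1 the lowest.

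LOC106880995, at rank 81, and LOC106869413, chosen for mention after its values were seen, had the most vertical lobe libraries above all 30 others. Its vertical lobe values were 7.25, 845 and 1370 TPM, for LOC106880995, the lowest again in right mediolateral 1, and 12 of the 15 lay above all 30 other libraries, whose highest value was 494 TPM. Its subvertical libraries held 309, 430 and 423 TPM, and the median of the 30 others was 39.4 TPM. LOC106880932 had 6.02, 501 and 1030 TPM in the vertical lobe and at most 400 TPM elsewhere, and 9 libraries lay above all 30. LOC106868263 varied widely, from 23.3 to 3338 TPM with a median of 327 TPM, and the 3 right lateral libraries alone held 1620, 3338 and 208 TPM.

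**Figure D3:**
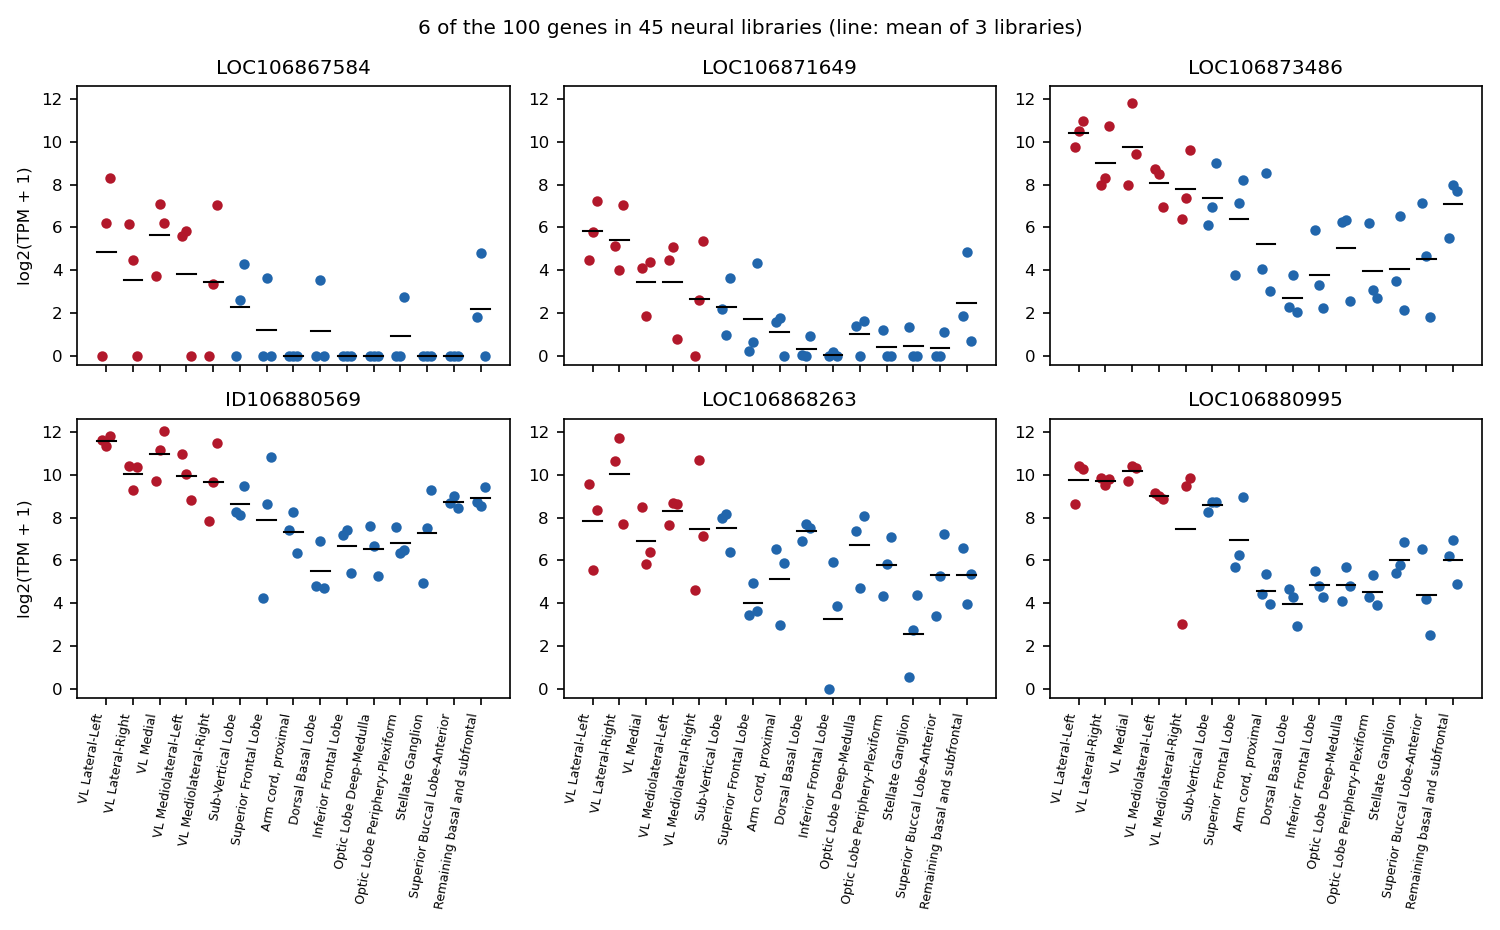
log2(TPM + 1) of 6 of the genes in the 45 neural libraries the choice used, by tissue (points, 1 library each; line, mean of 3; vertical lobe in red). Vertical lobe libraries of LOC106867584 split between 0 and values up to 317 TPM, while 14 of 15 of LOC106880995 lie between 396 and 1370 TPM.

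Ranks 6 to 10 held members of lower level. LOC106870671, a long non-coding RNA, had a vertical lobe median of 15.4 TPM and LOC106871231, also non-coding, one of 7.05 TPM. LOC106872932 had 4.46 TPM, LOC106881926 had 26.1 TPM and LOC106877617 had 29.8 TPM. Of these, LOC106881926 was above 0 in all 15 libraries, between 9.74 and 61.8 TPM. All 10 leading genes stayed among the 100 without right mediolateral 1, on the deposited scale and after quantile scaling.

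At the edge of the list, scores changed little from gene to gene. LOC106878559, LOC106879721 and LOC106883550 at ranks 98 to 100 had scores of 0.59, 0.58 and 0.58, and LOC106871014, LOC106868809 and LOC106882931, the next 3 genes outside the list, had 0.58, 0.57 and 0.57. Inside the edge the vertical lobe means were 42.9, 56.0 and 18.6 TPM, and outside it 106, 24.6 and 97.8 TPM.

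How spike-in RNA is counted changed who belonged to the list. Spike-ins were left out and each library rescaled, as the choice of genes prescribes. With spike-ins kept in the total, 41 of the 100 genes stayed among the top 100, 82 still had a score above 0, and the median score was 0.30. Spike-in shares were 20.8% to 94.1% in vertical lobe, 24.7% to 74.6% in superior frontal and 2.39% to 54.3% in subvertical libraries. Leaving out right mediolateral 1 kept 77 genes, and leaving out stellate ganglion 1 kept 92.

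In RefSeq's annotation of assembly ASM119413v2, 91 of the 100 genes were found. There, 82 were protein coding, 8 were long non-coding RNAs and 1 was a miscellaneous RNA. Among all 15438 matched scored genes, 93.3% were protein coding and 6.17% long non-coding. Members lay next to each other in 3 cases. LOC106877617, the long non-coding LOC106877638 and LOC106881926 at ranks 10, 91 and 9 were consecutive genes, and LOC106876311 and LOC106876348 at ranks 34 and 35 were neighbours. LOC106877638 overlapped LOC106877617 in the annotation, and LOC106876348 overlapped LOC106876311. Whether the counting used strand is not given in the sources used here. Reads in a stretch that overlapping partners share may therefore not be told apart. Another 2 pairs had 1 or 2 genes between them, LOC106881329 with LOC106881334 and LOC106884059 with LOC106879764.

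Differences between the subdivisions were not scored, so they were compared within the vertical lobe. The choice still bears on them, since 1 high library can raise both the score and a difference. Of vertical lobe libraries, only medial 2 was nearest to its own subdivision (medial 3, r = 0.88). Medial 1 was nearest to right mediolateral 2 (0.92, own label 0.75). Left lateral 1 and 3 were nearest to left mediolateral 1. Right lateral 1, left mediolateral 1 and 2 and right mediolateral 3 were nearest to chromatophores 1. Right mediolateral 2, left mediolateral 3 and right lateral 3 were nearest to that piece on the other side. What tissue these labels hold was not tested. In a limma fit over the 45 libraries, 0 of 100 members were called for lateral against mediolateral tissue at an adjusted p under 0.05 and a log2 difference of at least 1, where 0.0% of 13346 genes were called. At an unadjusted p under 0.05, 13 members were higher and 3 lower in lateral tissue, beside 217 and 559 of all genes. The median member was 0.85 higher in lateral tissue on the log2(TPM + 1) scale, against -0.17 for all genes. A positive difference was found in 84 of 100 members and 38.2% of all genes. Without right mediolateral 1 the median was 0.43 and 72 were positive. Left lateral 1 to 3 carried 76.7%, 68.8% and 79.5% spike-in RNA, and right lateral 1 to 3 carried 32.8%, 20.9% and 66.4%. Left mediolateral 1 to 3 carried 20.8%, 55.2% and 24.7%, and right mediolateral 1 to 3 carried 94.1%, 26.2% and 63.1%. Whether these shares bear on the difference was not tested. On the deposited scale the median difference was 0.35. The member nearest to a call was ID106881620, lower in lateral tissue by 2.21 ± 0.66 (SE; adjusted p = 0.763 in limma). It was called in 1 of 27 alternatives, the one without right mediolateral 2, and its vertical lobe mean of 9.63 TPM was 2.28 TPM without its highest library, right mediolateral 1.

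For medial tissue against the other 4 subdivisions, 0 of 100 members were called in limma, where 0.015% of 13346 genes were. At an unadjusted p under 0.05, 2 members were higher in medial tissue and 0 lower, beside 166 and 108 of all genes. The median member differed by 0.39 (all genes -0.06). LOC106875115 came nearest, 2.16 ± 0.47 higher (SE; adjusted p = 0.16 in limma), and its vertical lobe mean of 2.90 TPM was 0.49 TPM without medial 3. It was called in the fit without medial 2.

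Left against right tissue gave 0 called members in limma and 0.0% of 13346 genes, with 2 members higher on the left and 0 lower at an unadjusted p under 0.05, beside 273 and 192 of all genes. The median member was 0.51 higher on the left (all genes 0.00), with 79 of 100 positive, beside 50.6% of all genes. Without right mediolateral 1 the median was 0.17 with 65 members positive. Spike-in shares were 68.8% to 79.5% in left lateral and 20.9% to 66.4% in right lateral libraries. In mediolateral libraries they were 20.8% to 55.2% on the left and 26.2% to 94.1% on the right. Whether they bear on this difference was not tested. LOC106867478 was nearest to a call, 2.90 ± 0.65 higher on the left (SE; adjusted p = 0.143 in limma), and was called without left mediolateral 3. Its vertical lobe mean of 13.2 TPM was 8.63 TPM without left lateral 3.

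Each subdivision had 1 library with ObA in its name and 1 each marked B or C, and the labels do not say what the letters stand for. Between ObA names and the others, 0 of 100 members and 0.0182% of 10964 genes were called in limma with subdivision as a term. At an unadjusted p under 0.05, 10 members were higher and 4 lower in ObA names, beside 716 and 202 of all genes. The median difference was 0.33 for members and 0.23 for all genes. Between B and C names, 0 members and 0.0% of genes were called, with 3 members higher and 5 lower at an unadjusted p under 0.05, beside 978 and 400 of all genes. The median member differed by -0.44 with 35 of 100 positive, against 0.20 and 57.5% for all genes. Leaving out medial 2 gave 3 called members there, LOC106868263, LOC106871231 and LOC106879767. The count of all genes called in that fit is not given here.

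The tissues that the choice did not use were then examined. The vertical lobe mean log2 level lay above all 6 remaining neural tissues in 90 of the 100 genes and above all 25 non-neural tissues in 55. It lay above both sets in 52 of 100 genes, where the same held for 4.32% of 14800 genes. Since the vertical lobe values chose the members, these counts are a description. The median over members in the 6 neural libraries was 1.66 to 2.73, below all 15 vertical lobe libraries.

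The non-neural tissue with the highest member level was most often the chromatophores, with 34 genes. This rests on chromatophores 1: without it the chromatophores led for 3 genes, and the arm tip with 17 and the ova with 16 led most often. The median member stood at 4.90 in chromatophores 1 and 2.06 in chromatophores 2, on the log2(TPM + 1) scale, and 99 and 84 of the 100 genes were above 0. LOC106868263 was at 1395 TPM in the first and 0.63 TPM in the second, and no other non-neural library exceeded 18.1 TPM. Without chromatophores 1, 54 genes lay above all non-neural tissues and 51 above both sets.

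Some members were more abundant in another organ than in the vertical lobe. ID106880569 reached 2830 TPM in the mean of 3 retina libraries. LOC106880767 stood at 1067 TPM in the 1 arm tip library, against 284 ± 112 TPM in the vertical lobe (SD, n = 15). LOC106874495 averaged 925 TPM in the branchial heart ventricle and 24.5 ± 23.8 TPM in the vertical lobe (SD, n = 15). LOC106874627 was at 443 TPM in the output part of the systemic heart, close to its vertical lobe mean of 421 TPM. At the other end, 3 members stayed under 1 TPM in all non-neural tissue means without chromatophores 1.

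The retina, the light-sensing tissue of the eye, and the branchial hearts, which pump blood through the gills, gave a test on libraries outside the choice. Retina 2 lay nearest to the hectocotylus (r = 0.83, against 0.79 for its own label). Retina 3 lay nearest to stellate ganglion 2 (0.77, against 0.75). Auricle 1 was nearest to a systemic heart vessel (0.89, against 0.86) and auricle 2 to the male gonad (0.85, against 0.80). Ventricle 2 was nearest to stellate ganglion 1 (0.812, against 0.809). Retina 1, auricle 3, ventricle 1 and ventricle 3 were nearest to their own label. The limma fit drew its spread from 15 libraries of 6 non-neural tissues, among them both salivary glands and both chromatophore libraries. Chromatophores 1, which stood apart from its label, was left out in no alternative. In this fit, 3 of 92 tested members were higher in retina, where 1.94% of 12611 genes were, and 1 was lower, where 2.91% were. ID106880569 had 1194, 2075 and 5221 TPM in retina 1, 2 and 3 and 9.93 to 94.7 TPM in the 6 branchial heart libraries. The groups did not overlap, and the log2 difference was 5.80 ± 0.89 (SE; adjusted p = 0.00111 in limma). LOC106874495 went the other way, with 16.4, 0 and 0 TPM in retina, 94.5 TPM at most in the auricle and 262 to 1697 TPM in the ventricle (-5.81 ± 0.98, SE; adjusted p = 0.00235 in limma). Both were called in all 17 alternatives.

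ID106883863 had 25.2 to 29.9 TPM in retina and at most 0.26 TPM in the branchial hearts, where limma gave an adjusted p of 0.0271, with a call in 9 of 17 alternatives. LOC106871649 had 26.8 to 33.3 TPM in retina, and at most 1.32 TPM in 5 of 6 branchial heart libraries, while auricle 3 came close to the retina level. Its adjusted p was 0.0492 in limma and it was called in 5 of 17 alternatives. The library labelled retina 3 had 73.6% spike-in RNA, and 2 members were called without it or without ventricle 1.

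The second table offered vertical lobe libraries that took no part in the choice. Against the pooled group of stellate ganglion, brachial ganglion and medial superior frontal lobe, 0 of 94 tested members were called higher in the 2 whole vertical lobe libraries (0.0872% of 10316 genes in limma) and 0 were called lower (0.0% of genes). At an unadjusted p under 0.05, 1 member was higher and 1 lower, beside 206 and 236 of all genes. The median member was 0.30 higher in the whole vertical lobe, against -0.07 for all genes. The 3 other tissues went different ways, and the comparison was split between them after the values were seen.

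Against the 2 peripheral ganglia, the members stood higher in the whole vertical lobe. Both whole vertical lobe libraries lay above both ganglia in 55 of 94 members, where this held for 21.8% of 10316 genes, and below both in 2, where 20.4% of genes did. The median difference was 0.93 for members and 0.12 for all genes. With the medial superior frontal lobe as a group of its own, limma called 3 of 94 members higher and 0.494% of genes. These 3 were called again when the medial superior frontal library was left out of the 2-group fit. In the 3-group fit, leaving out whole vertical lobe 1, the stellate or the brachial library gave 1, 8 and 11 called members, beside 19, 105 and 441 called genes, with 1 residual degree of freedom in each of these fits.

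LOC106871334 had 74.7 and 34.1 TPM in the whole vertical lobe and was listed at 0 in both ganglia. Its difference of 5.69 ± 0.71 (SE; adjusted p = 0.00891 in limma) on the log2(TPM + 1) scale depends on the pseudocount. LOC106868263 had 370 and 607 TPM against 2.75 TPM in the stellate and 24.9 TPM in the brachial ganglion, a difference of 5.59 ± 0.84 (SE; adjusted p = 0.0229 in limma). LOC106867584, the leading gene of the plate, had 19.1 and 11.3 TPM and was listed at 0 in both ganglia (3.97 ± 0.72, SE; adjusted p = 0.0413 in limma). Of 11 alternatives, they were called in 9, 10 and 7. None was called without a filter on low values. In the medial superior frontal library, LOC106871334 was at 130 TPM and LOC106867584 at 22.8 TPM, each above both whole vertical lobe libraries. LOC106868263 was at 371 TPM there.

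Against the library labelled medial superior frontal lobe, the order was the reverse of the plate's. Across genes, that library was closer to the plate's vertical lobe mean (r = 0.80, 15 libraries) than to its superior frontal lobe (0.78, 3 libraries). It was also closer to that mean than either whole vertical lobe library was (0.77 and 0.79). What tissue these labels hold was not tested. The medial superior frontal library lay above both whole vertical lobe libraries in 86 of 94 members, where this held for 56.2% of 10316 genes. It lay below both in 0, where 18.0% of genes were. It was the highest of the 5 libraries for 83 of 94 members and 37.9% of genes. In the plate, by the choice of genes, the vertical lobe mean was above the superior frontal mean in every member, by 0.60 to 5.50 with a median of 1.30. The limma fit has 2 residual degrees of freedom, from the pair of whole vertical lobe libraries and from 2 different ganglia treated as 1 group, and the lone library is assumed to vary like these. It called 0 members and 0.0% of genes higher in the medial superior frontal library, and 3 members had an unadjusted p under 0.05. Without the stellate or the brachial library, 2 members were called, beside 25 and 24 genes. The median difference was 0.99 for members and 0.40 for all genes. After median ratio scaling these medians were 0.63 and 0.08.

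Single members show the size of this. LOC106873486 had 95.2 and 43.9 TPM in the 2 whole vertical lobe libraries and 367 TPM in the medial superior frontal library. LOC106880995 had 226 and 122 TPM against 621 TPM, and LOC106880932 had 98.6 and 52.3 TPM against 210 TPM. Only LOC106868263, among the genes named here for their vertical lobe level, did not stand lower in the whole vertical lobe, with 370 and 607 TPM against 371 TPM. The 2 whole vertical lobe libraries also differed, the first above the second in 80 of 94 members, where 80.3% of genes were.

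**Figure D4:**
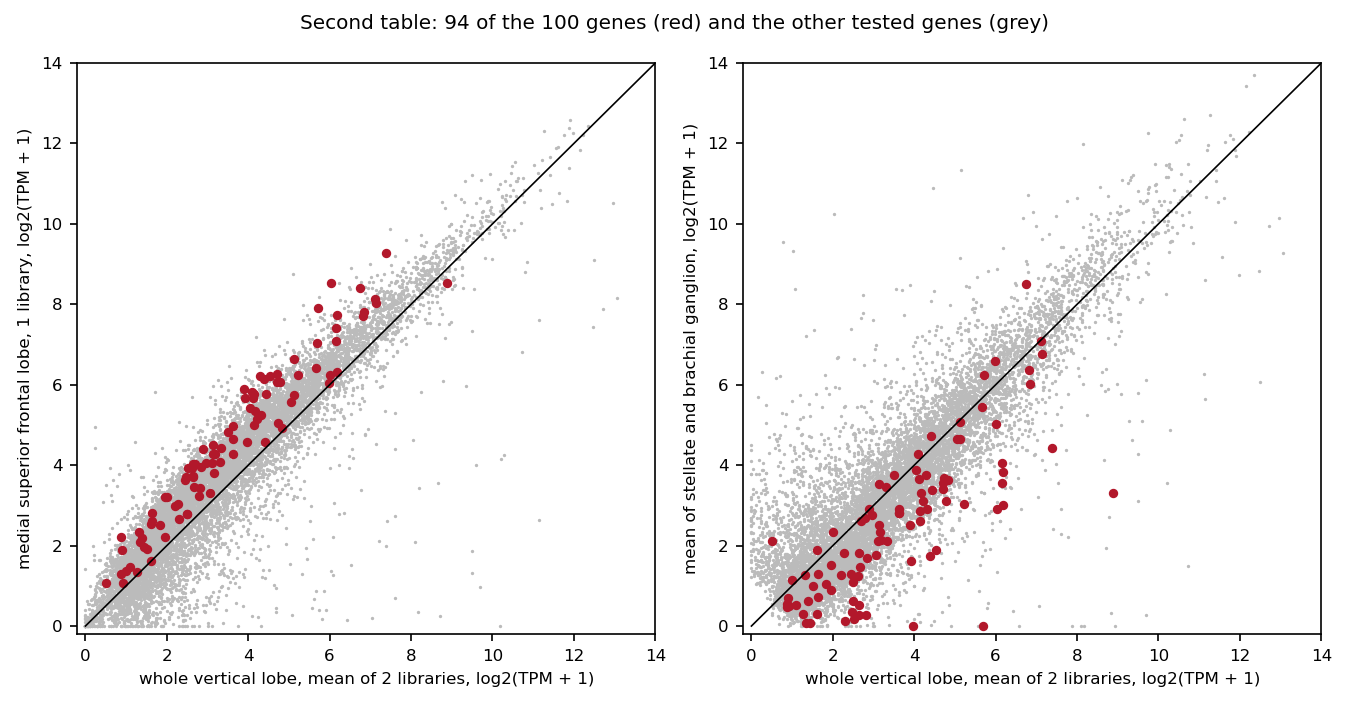
Second table: log2(TPM + 1) of 94 of the 100 genes (red) and of the other tested genes (grey), with the mean of 2 whole vertical lobe libraries on both x axes and the medial superior frontal library (left) or the mean of the stellate and brachial ganglion libraries (right) on the y axes; the line marks equality. Of the 94, 86 are higher in the medial superior frontal library than in both vertical lobe libraries, and 55 have both vertical lobe libraries above both ganglia.

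The 5 members lowest in the whole vertical lobe relative to the 3 other tissues were LOC106879764, LOC106878178, LOC106873401, LOC106881353 and LOC106876348. LOC106879764 had 136 and 84.1 TPM there and 654 TPM in the stellate ganglion, 199 TPM in the brachial ganglion and 340 TPM in the medial superior frontal library. LOC106873401 was at 117 and 22.1 TPM against 240 TPM in the medial superior frontal and 208 TPM in the brachial library. The mean log2 differences of the 5 ran from -1.71 to -0.69.

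The second table also holds 1 amacrine and 1 large efferent neuron of the vertical lobe, the interneuron and the output neuron of its circuit. With 1 cell each, differences between them have no replicate check and no test. At least 1 TPM was reached in both cells by 64 members, in the amacrine cell alone by 5, in the efferent cell alone by 15 and in neither by 16. Among all 17544 genes, 28.7% reached it in both and 41.3% in neither. The median member stood at 5.02 in the amacrine and 4.90 in the efferent neuron on the log2(TPM + 1) scale.

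Most members differed by less than 4-fold between the 2 cells. Of 84 members at 1 TPM or more in either cell, 9 were at least 4-fold higher in the amacrine neuron, where 16.4% of 10304 genes were, and 16 were at least 4-fold higher in the efferent neuron, where 35.2% of genes were. LOC106868263 was the highest member in both, at 1534 TPM in the amacrine and 1767 TPM in the efferent neuron. ID106880569 followed in the efferent neuron at 802 TPM, with 760 TPM in the amacrine neuron, and LOC106867812 stood there at 757 TPM and 439 TPM. LOC106880932 had 732 and 534 TPM, LOC106880995 had 629 and 634 TPM, and LOC106874627 had 610 TPM in the amacrine and 196 TPM in the efferent neuron. LOC106871231 was at 31.1 TPM in the amacrine neuron and listed at 0 in the efferent neuron.

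The members also differed between these 2 cells and the 3 other neurons, from the stellate ganglion and from both parts of the optic lobe. Both vertical lobe neurons lay above all 3 others in 40 of 89 members at 1 TPM in at least 2 cells, where this held for 7.68% of 13730 genes. LOC106873486 had 153 TPM in the amacrine and 498 TPM in the efferent neuron, and 0, 2.96 and 0 TPM in the other 3. LOC106871334 had 382 and 228 TPM against at most 14.9 TPM, and LOC106880995 at most 52.5 TPM outside the vertical lobe. Abundant members were not always absent from the other cells: LOC106874627 was at 235 TPM in the stellate ganglion neuron, and LOC106876348 at 233 TPM in the neuron of the optic periphery was higher than in both vertical lobe cells. The stellate neuron had 47 members above 0, the optic medulla neuron 81 and the optic periphery neuron 79, beside 45.9%, 74.4% and 77.1% of all genes.

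The leading gene of the list, LOC106867584, was listed at 0 in all 5 neurons. LOC106873430 and LOC106870671 were listed at 0 in both vertical lobe neurons. The depth of these cells is unknown, so a listed 0 does not show absence.

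**Figure D5:**
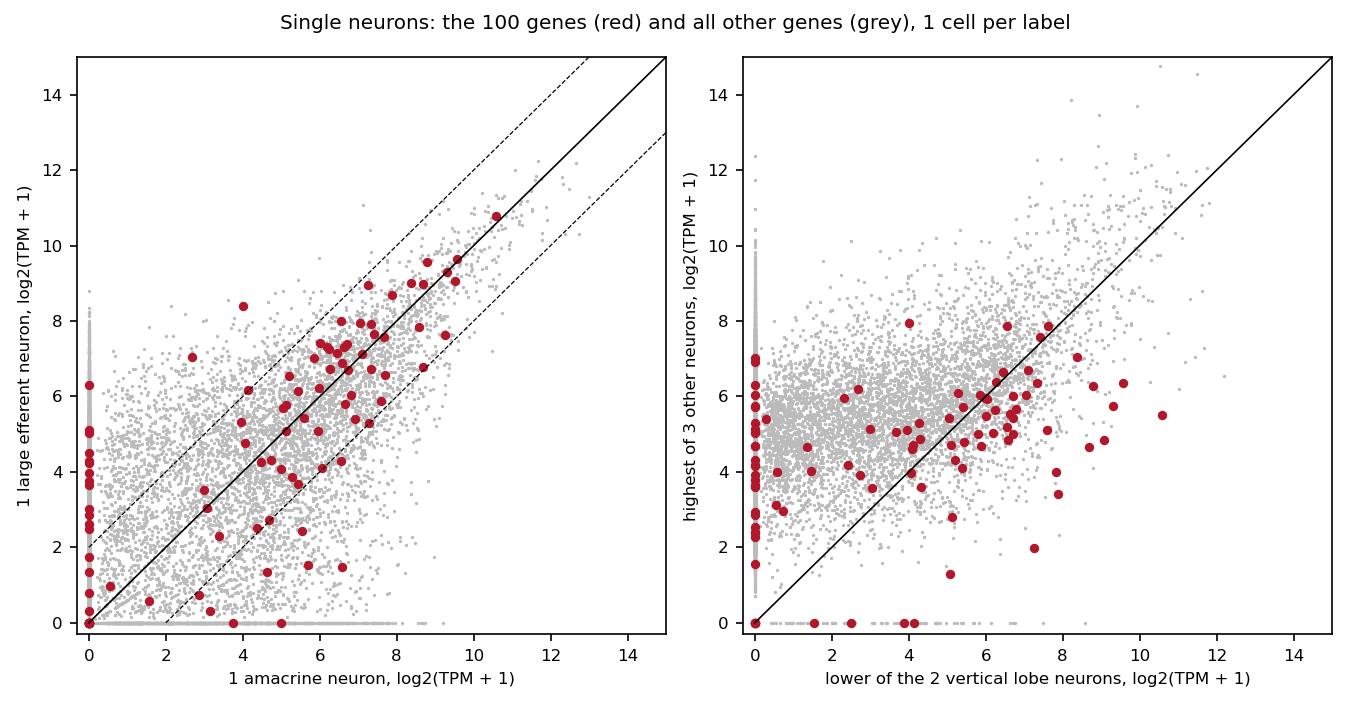
log2(TPM + 1) of the 100 genes (red) and all other genes (grey) in single neurons, 1 cell per label. Left, amacrine against large efferent neuron of the vertical lobe, with dashed lines at a 4-fold difference, beyond which 9 and 16 members lie; right, the lower of these 2 cells against the highest of 3 other neurons, where 40 members lie below the line of equality among those at 1 TPM in at least 2 cells.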

How the data were processed

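The authors deposited 2 tables of TPM. Per the submitters' processing notes, Trimmomatic 0.32, STAR 2.3, featureCounts and edgeR 3.14.0 were used. Not given in the sources used here: tool settings, genome build. TPM carries no depth, which is unknown here, so no counting interval was computed; spike-in share and genes detected are given instead (3345 to 11347 genes at 1 TPM in the 85 plate libraries). Every column was used.

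Spike-ins were dropped, columns rescaled to 1000000, each gene represented by its transcript of highest plate mean, and genes at 5000 TPM or more in any of the 15 tissues skipped. Tests were limma 3.58.1 (R 4.3.3) with trend on log2(TPM + 1), Benjamini-Hochberg over all genes tested, at adjusted p under 0.05 and a log2 difference of at least 1, keeping genes that reached 1 TPM in 3 or more libraries (2 in the retina fit and second table). The fits were tested on simulated data. Differences on this scale understate changes of low genes. Samples were grouped by labelled tissue. The members, lists and tests were chosen with earlier results of these data known, and the 3-group fit of the second table after its values were seen. Named genes are the top 10 by score, the top 5 by level in the vertical lobe, in any non-neural tissue and in each vertical lobe neuron, called members, the 5 lowest in the whole vertical lobe, neighbours and the 3 genes on either side of the threshold. ID106881620, LOC106875115, LOC106867478, LOC106879767 and LOC106869413 were added after their values were seen. Alternatives changed pseudocount, filter, scaling, blocks and libraries. Sequences were not analysed here.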

Additional observations from a re-analysis of the deposited data

Results flagged for a closer look

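In the plate table the vertical lobe mean was above the superior frontal mean in all 100 members, by their choice. In the second table, the library labelled medial superior frontal lobe was above both whole vertical lobe libraries in 86 of 94 members, and it was below both in 0. The opposite directions flagged this result. Across 10296 genes, the medial superior frontal library was closer to the plate's vertical lobe mean (r = 0.80, 15 libraries) than to its superior frontal lobe (0.78, 3 libraries). Both whole vertical lobe libraries were nearest to the subvertical lobe (0.87 and 0.90) and then the dorsal basal lobe (0.85 and 0.88). What tissue these labels hold was not tested. The difference between the tables was not tested, since the tables were scaled separately and the second has 1 library of that lobe.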

How the results depend on the processing

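Of the 100 members, 41 were kept on the deposited scale, and 77 to 92 when 1 library was left out. Pseudocounts of 0.5 and 2 kept 95 and 90, quantile scaling 70, and the mean over transcripts 94. Leaving out 1 library gave 0 to 1 called members in each contrast of subdivisions, 0 to 3 between B and C names (3 without medial 2), 2 to 4 for retina against branchial heart, 0 to 3 for the whole vertical lobe against the 3 other tissues (3 without the medial superior frontal library), 1 to 11 for the whole vertical lobe against the 2 ganglia and 0 to 2 for the medial superior frontal library. Several of these last fits keep 1 residual degree of freedom. Retina calls numbered 2 without a filter and on the deposited scale. Calls against the 2 ganglia numbered 0 without a filter and 5 both on the deposited scale and after quantile scaling. The causes were not tested. Title numbers did not pair libraries (median correlation of same-numbered deviations -0.02 over 315 pairs), and with them as a replicate block 0 members were called in each contrast of subdivisions and 4 for retina against branchial heart. Vertical lobe libraries sharing a name set (ObA, B or C) had a median correlation of 0.12 over 30 pairs, against -0.07 for different sets, and with the name set as a block 0 members were called in each contrast of subdivisions. The 4-fold counts and the 52 members above every unused tissue stayed within 1.5 times. Unknown depth limits low members.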

Other observations

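Of 18 sequences that carry a name in the tables, 9 were above 0 in at least 1 of the 15 vertical lobe libraries of the plate. The mean there was 108 ± 268 TPM (SD, n = 15) for Sp38, and 46.1 TPM without left mediolateral 3. For Insulin1 it was 14.9 ± 33.2 TPM (SD, n = 15), and for IRELamide2 11.6 ± 16.7 TPM (SD, n = 15), or 6.66 and 7.64 TPM without left lateral 1. Sp12 was at 8.73 ± 6.97 TPM (SD, n = 15). APGW, Betsin, GNRH, IRELamide1 and VLPep3 had means of 0.35 to 2.42 TPM and were above 0 in 1 to 6 of the 15 libraries. VLPep3 was at 503 and 1040 TPM in whole vertical lobe 1 and 2 of the second table and at 1.51 TPM in the medial superior frontal library, while in the plate it was above 0 in 4 of 15 vertical lobe libraries. GNRH was at 150 and 1145 TPM in the former and 0.19 TPM in the latter, and above 0 in 1 of 15 plate libraries. In the plate subvertical libraries, VLPep3 was at 209, 438 and 6.08 TPM and GNRH at 24.9, 147 and 3.06 TPM. The dorsal basal libraries held 1080, 117 and 358 TPM of VLPep3 and 366, 87.9 and 60.9 TPM of GNRH. IRELamide2 was at 552 TPM in the amacrine and 1842 TPM in the large efferent neuron, and at most 66.2 TPM in the 3 other neurons.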
